A study of Saccharomyces cerevisiae with 6 samples.

Results

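Eisosomes are furrow-shaped domains of the yeast plasma membrane. The furrow is shaped by a coat of the BAR-domain proteins Pil1 and Lsp1, which bind the phosphoinositide made by the kinase Mss4. Its membrane holds Nce102 and tetraspan proteins of the Sur7 family, and it stores nutrient permeases. The Pkh kinases phosphorylate the coat, and Slm1 and Slm2 leave the furrows for the TORC2 kinase complex under membrane stress. Transcripts of 9 genes were followed here: the coat genes PIL1 and LSP1, the assembly genes SEG1 and EIS1, NCE102, and the SUR7-type tetraspan genes SUR7, FMP45, YNL194C and PUN1. They were chosen as eisosome core and SUR7-type proteins by their gene symbol or locus tag in the platform's annotation. All 9 were found among the 5449 named genes, each with 1 probe set, and all 9 passed the filter that left 5350 genes for testing.

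RNA came from Saccharomyces cerevisiae strain BY4741, a laboratory haploid of mating type a with deletions in HIS3, LEU2, MET17 and URA3. In the PI3K group, a galactose promoter drove p110α-CAAX, a mammalian phosphoinositide 3-kinase subunit with catalytic activity, joined to a membrane-targeting motif. The KD group carried the same construct with the kinase-dead substitution K802R. Both groups were grown in raffinose medium and then given 2% galactose for 4 h at 30 °C, and 3 arrays were run for each, each from a separate biological sample. By design, galactose and the production of the protein are therefore shared by both groups, and the comparison is meant to vary the kinase activity. The labels do not say whether the replicates were separate transformants. The transgene itself was not analysed here, so equal production in the groups was not checked.

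Values are GCRMA summaries taken as log2, so a difference of 1 is 2-fold, and levels of different probe sets are not compared with each other. GAL1, GAL7 and GAL10, the galactose enzymes, differed between PI3K and KD by -0.02, 0.17 and -0.02 on the log2 scale. Their group means, from 13.74 to 14.11, lie near the highest values of the arrays (14.51 to 14.70). A difference in induction could be hard to see there. Of the a-cell genes, the receptor gene STE2 had a mean log2 value of 11.31 in PI3K and 11.29 in KD, and the a-factor gene MFA1 12.14 and 12.01. The second a-factor gene, MFA2, had 12.38 in PI3K and 12.77 in KD with the groups apart, and did not pass (limma adjusted p = 0.213). Among alpha-cell genes, STE3, the receptor for a-factor, stood at 7.83 in PI3K and 6.98 in KD, a difference that did not pass the test (limma adjusted p = 0.145). The alpha-factor genes YPL187W and YGL089C had 4.60 and 5.64 in PI3K, against 5.01 and 5.74 in KD, so the alpha-cell genes did not share a direction. The arrays carried a second difference besides the groups: with group means removed, 70.4% of the variance lay on the first principal component. That component set PI3K 1, PI3K 3 and KD 3 (called side A) against KD 1, KD 2 and PI3K 2 (called side B). KD 3 correlated more with PI3K 1 (Pearson r 0.983 over the genes tested) than with KD 2 (0.973) or KD 1 (0.968). PI3K 2 likewise correlated more with KD 1 (0.988) and KD 2 (0.987) than with PI3K 1 (0.984) or PI3K 3 (0.978). Without values for the transgene the labels could not be checked against it, and they were used as given throughout. No batch is given in the labels, and the values alone define the sides. Differences within each side are therefore given as descriptions, and each rests on an array without a replicate in its group.

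At an adjusted p of 0.05 in limma, none of the 9 genes was called, while 13 of all genes tested, or 0.243%, were. The PI3K and KD arrays lay fully apart for 3 of the 9 genes, against a background of 20.7% of all genes tested. PUN1 and YNL194C were the 2 of these with higher values in PI3K, as were 10.2% of all genes, and SEG1 was the 1 with lower values, as were 10.5%. The same 3 genes had an unadjusted p under 0.05, as did 14.5% of all genes. The median log2 fold change of the 9 was 0.28, with 6 above 0 and 3 below, while that of all genes tested was 0.00. Taken on sides A and B alone, the members' median was 0.14 and 0.04, where that of all genes was 0.05 and -0.02.

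**Figure D1:**
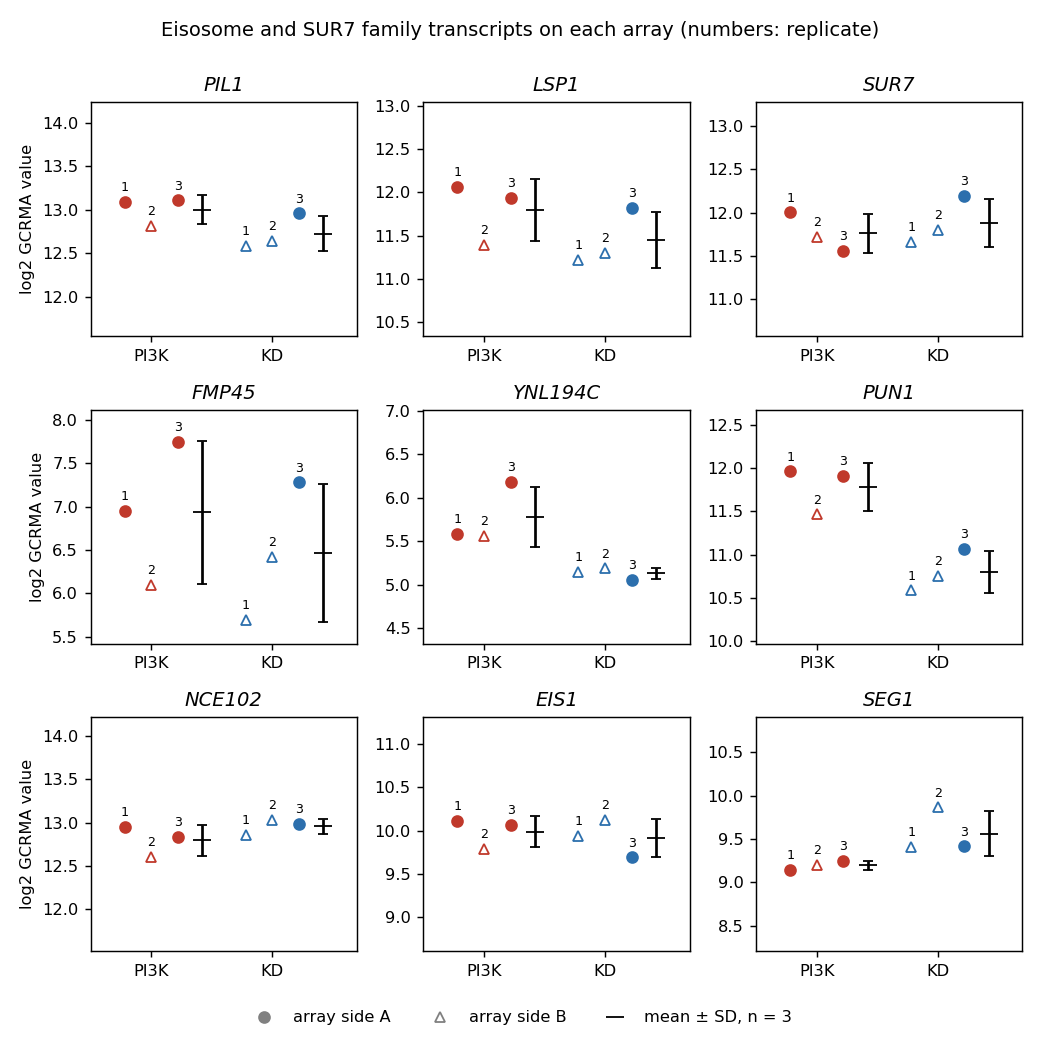
Log2 GCRMA value of each of the 9 genes (vertical axes, all spanning the same range) on the 3 PI3K and 3 KD arrays, numbered by replicate, with mean ± SD. Filled circles are arrays of side A and open triangles arrays of side B; the groups lie apart for PUN1, YNL194C and SEG1, and FMP45 follows the sides.

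PUN1 had the largest difference of the 9 genes. It encodes a tetraspan protein of the plasma membrane that is known for its rise under nitrogen stress and for a part in cell wall integrity. Its log2 values were 11.96, 11.46 and 11.91 on PI3K 1, 2 and 3, against 10.59, 10.76 and 11.07 on KD 1, 2 and 3. Every PI3K array lay above every KD array, and the lowest PI3K array was the one of side B. The means were 11.78 ± 0.27 in PI3K and 10.81 ± 0.24 in KD (SD, n = 3 each), a 1.96-fold difference. The log2 fold change of 0.97 (SE 0.19, 95% interval 0.53 to 1.42) did not pass over all genes, with an adjusted p of 0.119 in limma at rank 55 of 5350 by p. The difference was 0.87 on side A and 0.79 on side B. PUN1 was thus nearly as far apart within the sides as between the whole groups. Leaving out 1 array at a time gave log2 fold changes between 0.87 and 1.13. A fit with the array side as a further term, added once the data had been seen, called PUN1 and no other member (0.83, limma adjusted p = 0.0130). That p is too small by an unknown amount, because the same values define the side.

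YNL194C, one of the SUR7 relatives found in cortical patches and known for a part in sporulation, was the other member with all PI3K arrays higher. Its log2 values were 5.59, 5.56 and 6.18 on PI3K 1, 2 and 3, against 5.14, 5.19 and 5.05 on KD 1, 2 and 3. These lie near the low end of the arrays, whose lowest value was 2.49, and the probe set does not pass a filter set at a log2 value of 6. The KD arrays were close together (5.13 ± 0.07, SD, n = 3) and the PI3K arrays more scattered (5.78 ± 0.35), with PI3K 3 highest. The log2 fold change was 0.65 (SE 0.18, 95% interval 0.22 to 1.08), a 1.57-fold difference with a limma adjusted p of 0.209. On side A the difference was 0.83 and on side B 0.40. After quantile normalisation it was 0.42, and without PI3K 3 it was 0.45.

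FMP45, the closest relative of YNL194C among the members and likewise linked to sporulation, varied more between arrays than any other member. Its log2 values were 6.96, 6.10 and 7.75 on PI3K 1, 2 and 3, against 5.69, 6.42 and 7.28 on KD 1, 2 and 3. The groups overlapped: KD 3 exceeded PI3K 1 and PI3K 2, and KD 2 exceeded PI3K 2. The residual SD of 0.81 was larger than that of 99.5% of the genes tested, where the median gene had 0.20. The log2 fold change of 0.47 (SE 0.51, 95% interval -0.74 to 1.68, limma adjusted p = 0.762) did not pass. FMP45 was higher on side A than on side B by 1.25 among PI3K arrays and by 1.22 among KD arrays. Between PI3K and KD it differed by 0.07 among side A arrays and 0.04 among side B arrays. The fold change moved with single arrays, to 0.06 without PI3K 3, 0.08 without KD 1, 0.89 without PI3K 2 and 0.88 without KD 3.

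SUR7, the gene that names the family and marks the eisosome membrane, had no called difference. Its log2 values were 12.00, 11.72 and 11.56 on PI3K 1, 2 and 3, against 11.66, 11.80 and 12.19 on KD 1, 2 and 3. The groups overlapped, and the highest and lowest arrays, KD 3 and PI3K 3, both belong to side A. The log2 fold change was -0.12 (SE 0.18, 95% interval -0.56 to 0.31, limma adjusted p = 0.836). Its sign rested on KD 3, since without that array it was 0.03. It was -0.02 without PI3K 3, -0.24 without PI3K 1 and -0.23 without KD 1. SUR7 differed by -0.41 within side A and by -0.01 within side B.

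The coat genes PIL1 and LSP1 are paralogs. PIL1, whose product is the main coat protein and is needed for eisosomes to form, had log2 values of 13.09, 12.81 and 13.11 on PI3K 1, 2 and 3, against 12.58, 12.64 and 12.96 on KD 1, 2 and 3. LSP1, whose product shares the coat, had 12.06, 11.39 and 11.94 on PI3K 1, 2 and 3, against 11.22, 11.31 and 11.82 on KD 1, 2 and 3. In both genes the side A arrays PI3K 1, PI3K 3 and KD 3 were the 3 highest, followed by PI3K 2, KD 2 and KD 1, so that KD 3 exceeded PI3K 2 and the groups overlapped. FMP45 was the other member whose 3 highest arrays were those of side A. The log2 fold change was 0.28 for PIL1 (SE 0.15, 95% interval -0.08 to 0.63, limma adjusted p = 0.464). For LSP1 it was 0.35 (SE 0.23, 95% interval -0.20 to 0.89, limma adjusted p = 0.573). Within sides A and B the differences were 0.14 and 0.21 for PIL1, and 0.18 and 0.13 for LSP1. LSP1 was higher on side A than on side B by 0.61 among PI3K arrays and 0.55 among KD arrays, against 0.28 and 0.35 for PIL1. With 1 array left out, the fold change of PIL1 lay between 0.21 (without KD 1) and 0.39 (without KD 3), and neither coat gene passed. That of LSP1 moved more, to 0.21 when PI3K 1 was left out and 0.23 for KD 1, and to 0.53 when KD 3 was left out and 0.55 for PI3K 2.

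SEG1, which acts before the coat assembles and stabilises eisosomes, was the member with all PI3K arrays lower. Its log2 values were 9.15, 9.20 and 9.24 on PI3K 1, 2 and 3, against 9.41, 9.87 and 9.41 on KD 1, 2 and 3. The gap between the highest PI3K array and the lowest KD array was small, and KD 2 stood above the other KD arrays. The log2 fold change was -0.36 (SE 0.15, 95% interval -0.72 to -0.01), a ratio of PI3K to KD of 0.777 with a limma adjusted p of 0.335. Without KD 2 it was -0.21. The differences on sides A and B were -0.22 and -0.43.

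EIS1, also needed for normal eisosome assembly, had log2 values of 10.11, 9.79 and 10.07 on PI3K 1, 2 and 3, against 9.94, 10.12 and 9.69 on KD 1, 2 and 3. NCE102, whose product responds to sphingolipids and restrains the Pkh kinases, had 12.95, 12.60 and 12.83 on PI3K 1, 2 and 3, against 12.86, 13.03 and 12.99 on KD 1, 2 and 3. Groups overlapped in both genes. The log2 fold changes were 0.07 for EIS1 (SE 0.16, 95% interval -0.30 to 0.44) and -0.16 for NCE102 (SE 0.13, 95% interval -0.47 to 0.14), with limma adjusted p of 0.901 and 0.643. EIS1 differed by 0.40 within side A and -0.25 within side B, so its direction was not the same on both sides, and without KD 3 it was -0.04. It was 0.17 without PI3K 2 and without KD 2, and 0.01 without PI3K 1. NCE102 was at -0.07 without PI3K 2 and at -0.24 without PI3K 1.

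**Figure D2:**
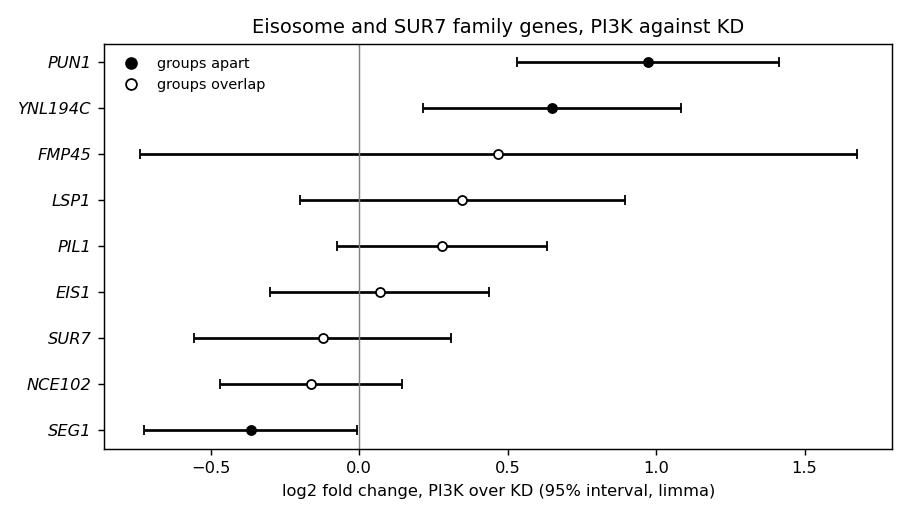
Log2 fold change of PI3K over KD (horizontal axis) for the 9 genes with 95% limma intervals; filled points are genes whose PI3K and KD arrays do not overlap. The intervals of PUN1, YNL194C and SEG1 leave out 0, and that of FMP45, from -0.74 to 1.68, is the widest.

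Across the 9 genes, 5 were higher in PI3K within both sides (PUN1, YNL194C, FMP45, LSP1 and PIL1), 3 were lower within both (NCE102, SEG1 and SUR7, the last at -0.01 on side B) and EIS1 differed in sign. Of all genes tested, 33% were higher within both sides and 28.6% lower. The sizes separate PUN1 and YNL194C, at 0.40 or more within each side, from FMP45, LSP1 and PIL1, at 0.21 or less. What the sides stand for is not given by the labels, and their part in these differences was not tested.

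**Figure D3:**
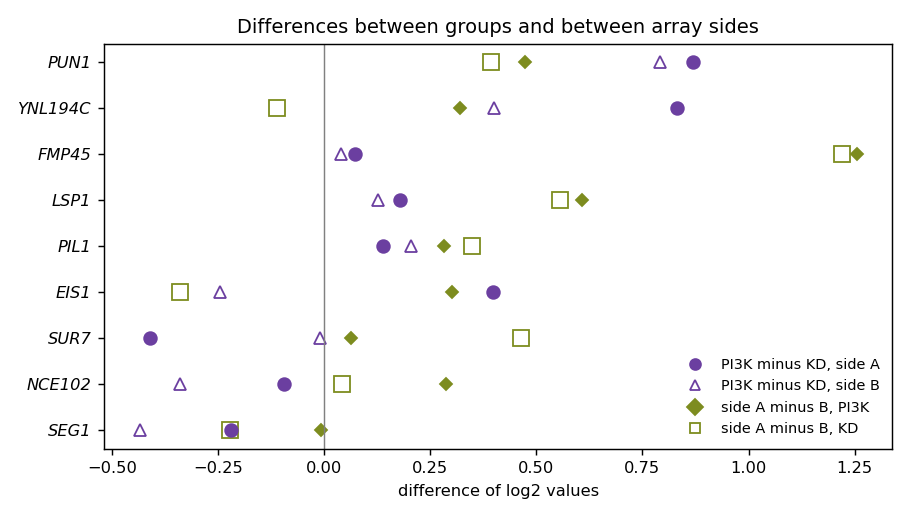
Differences of log2 values (horizontal axis) for the 9 genes: PI3K minus KD within side A (filled circles) and side B (open triangles), and side A minus side B among PI3K arrays (filled diamonds) and KD arrays (open squares). PUN1 lies at 0.79 and 0.87 between groups, while FMP45 lies at 1.22 and 1.25 between sides and at 0.04 and 0.07 between groups.

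Relatives were then compared for unequal change, by the exact two-sided permutation test of the per-array difference of their log2 values. With 3 arrays against 3 the smallest p this test can give is 0.1. PIL1 minus LSP1 differed between PI3K and KD by -0.07, against SDs over arrays of 0.20 in PI3K and 0.12 in KD (n = 3 each, exact p = 0.7). YNL194C minus SUR7 was 0.77 higher in PI3K than in KD, with the 3 PI3K arrays apart from the 3 KD arrays (exact p = 0.1, adjusted p = 0.6 over 6 pairs). The gap was small, with PI3K 1 at -6.42 and KD 1 at -6.52, and the signal of YNL194C is low. The other pairs gave 0.59 for FMP45 minus SUR7 (exact p = 0.5) and -0.18 for FMP45 minus YNL194C (exact p = 0.9). For SEG1 minus its paralog SEG2 the difference was -0.18 (exact p = 0.3), and for NCE102 minus its paralog FHN1 -0.30 (exact p = 0.4). No pair could pass at this number of arrays, and most of these differences moved with single arrays. FMP45 minus SUR7 was 0.08 without PI3K 3, 0.32 without KD 1 and 0.99 without PI3K 2. YNL194C minus SUR7 was 0.47 without PI3K 3, and 0.60 after quantile normalisation. NCE102 minus FHN1 was -0.06 without KD 3 and -0.56 without KD 1, and SEG1 minus SEG2 was -0.09 without KD 2.

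The genes most like PUN1 over the 6 arrays, by Pearson r over 5349 other genes, were YCL049C (0.997), the ceramidase gene YDC1 (0.994), YBR053C (0.993), the chitin synthase export gene CHS7 (0.991) and the halotolerance gene HAL1 (0.991). Their log2 fold changes ran from 0.72 for CHS7 to 1.08 for YCL049C, and their differences within the sides from 0.56 to 0.96. None of the 5 passed the test. Those most like PIL1 were ARA1, an arabinose dehydrogenase gene (0.998), NSG2 (0.997), the mitochondrial ribosomal protein gene MRPL4 (0.996), the cytochrome c peroxidase gene CCP1 (0.996) and TWF1, which encodes twinfilin (0.995). Their log2 fold changes ran from 0.37 for ARA1 to 0.78 for TWF1, and none passed. These correlations describe 6 arrays that share the group and side differences above.

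Genes that lie beside the members on the chromosomes were also looked at, a choice made after the data were examined. Of 18 neighbours 17 were tested and none was called. An unadjusted limma p under 0.05 was found for 2 of the 17, against 14.5% of all genes tested. These 2, INA1 and HOF1, are named for that p alone. INA1, which runs towards PUN1 from the next position, stood at -0.78 on the log2 scale (SE 0.22, limma adjusted p = 0.208), against 0.97 for PUN1. HOF1, a bud neck protein gene beside EIS1, stood at -0.43 (SE 0.12, limma adjusted p = 0.209).

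Other genes of the eisosome and of the signalling that meets it were read from the same fit. None of the 36 tested genes in 4 lists passed over all genes. Their median log2 fold change was -0.02 (17 above 0 and 19 below), and 7 had groups apart, against the 20.7% of all genes. RIM9, also listed, was below the filter, and TOS7 was not analysed here. In the list of 16 eisosome-associated proteins the median was 0.02. Its largest differences belonged to the kinases YPK2 and YPK1, which act downstream of TORC2 and the Pkh kinases and regulate membrane lipid synthesis. YPK2 had log2 values of 7.63, 6.74 and 8.27 on PI3K 1, 2 and 3, against 5.87, 5.92 and 6.57 on KD 1, 2 and 3. All PI3K arrays were higher, although PI3K 2 exceeded KD 3 by little. The log2 fold change was 1.43 (SE 0.39), a 2.69-fold difference with a limma adjusted p of 0.199. On sides A and B the differences were 1.39 and 0.85. YPK2 was also higher on side A than on side B, by 1.21 among PI3K arrays and 0.67 among KD arrays. With 1 array left out, its log2 fold change ran from 1.07 (without PI3K 3) to 1.83 (without PI3K 2). In the fit with the array side as a further term YPK2 was called (1.12, limma adjusted p = 0.0412, subject to the same limit as for PUN1). YPK1 had 10.77, 10.63 and 10.69 on PI3K 1, 2 and 3, against 10.28, 10.13 and 10.35 on KD 1, 2 and 3, with no overlap. Its log2 fold change was 0.45 (SE 0.11, limma adjusted p = 0.176), with 0.38 and 0.43 within sides A and B.

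SLM2, one of the proteins that carry signals from eisosomes to TORC2, lay the other way. Its log2 values were 7.96, 8.21 and 7.89 on PI3K 1, 2 and 3, against 8.48, 8.36 and 8.40 on KD 1, 2 and 3. The log2 fold change was -0.40 (SE 0.12, limma adjusted p = 0.231), with the groups apart, while its paralog SLM1 stood at -0.08. PST2, a flavodoxin-like protein of the eisosome membrane, was the other associated gene with groups apart (0.21, SE 0.11, limma adjusted p = 0.443). The Pkh kinase genes PKH1, PKH2 and PKH3 had log2 fold changes of -0.15, -0.19 and -0.08. SEG2 stood at -0.19, FHN1 at 0.14 and YGR130C at 0.00.

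The 5 permease genes of the compartment lay between -0.23 for the uracil permease gene FUR4 and 0.17 for the arginine permease gene CAN1, with overlapping groups for each. TAT2, for tryptophan, stood at 0.09 and LYP1, for lysine, at -0.15. Of 3 tested genes for other claudin-like proteins, ECM7 had groups apart (0.35, SE 0.12, limma adjusted p = 0.259). DCV1 had a larger difference on a low signal, with overlap (0.72, SE 0.27, limma adjusted p = 0.286), and FIG1 stood at -0.04. In the list of 12 phosphoinositide and TORC2 genes the median was -0.09. MSS4, the kinase that makes the lipid bound by the coat and used by the introduced kinase, had log2 values of 9.65, 9.77 and 9.55 on PI3K 1, 2 and 3, against 10.21, 10.22 and 9.80 on KD 1, 2 and 3. STT4, which makes the precursor of that lipid, had 9.88, 9.90 and 9.61 on PI3K 1, 2 and 3, against 10.19, 10.29 and 10.08 on KD 1, 2 and 3. Groups were apart for both, with log2 fold changes of -0.42 (SE 0.15, limma adjusted p = 0.274) for MSS4 and -0.39 (SE 0.13, limma adjusted p = 0.248) for STT4. For MSS4 the gap was small, with PI3K 2 at 9.77 and KD 3 at 9.80. Within sides A and B the differences were -0.20 and -0.44 for MSS4, and -0.33 and -0.34 for STT4. LST8, a subunit of both TOR complexes, stood at 0.68 (SE 0.26, limma adjusted p = 0.308) with overlapping groups, and AVO2, a subunit of TORC2, at 0.29. The phosphatase genes INP51, INP52 and INP53 lay between -0.14 and 0.00.

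**Figure D4:**
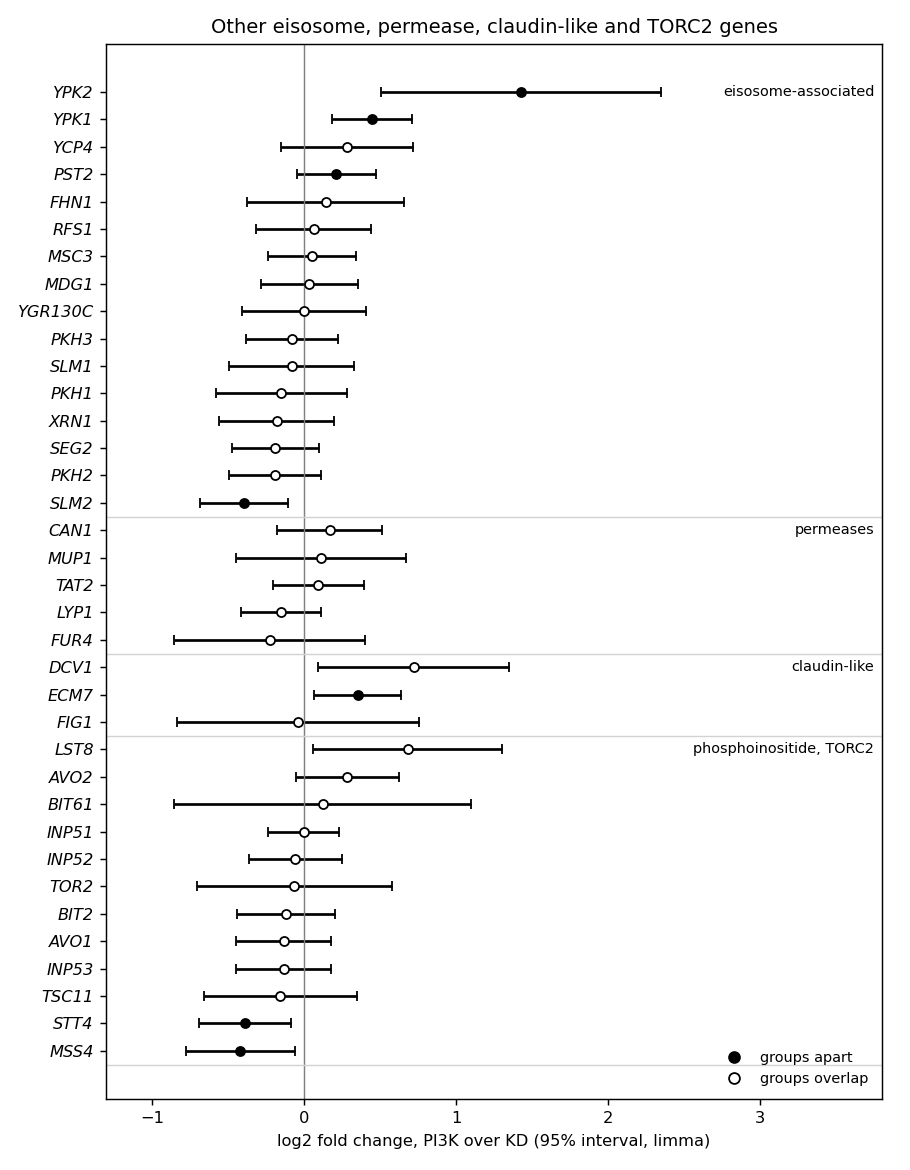
Log2 fold change of PI3K over KD (horizontal axis) with 95% limma intervals for the 36 tested genes of the 4 other lists, ordered by size within each; filled points are genes whose groups do not overlap. YPK2 at 1.43 lies farthest from 0, and 7 genes have groups apart.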

How the data were processed

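Biotin-labelled total RNA was read on 1-colour Affymetrix arrays, per the labels' protocols. GCRMA, which corrects background, normalises and summarises each probe set, is named without a version in the submitters' processing notes. The deposited values, which run from 2.49 to 14.70, are taken as log2, since no source used here states the log base. Of 5716 probe sets, 5498 had a gene identifier in the platform's annotation that matched the R64 gene table, from which symbols were taken. The other 218 had no match there. A gene was tested if its probe set of highest mean reached a log2 value of 4 on 3 or more of the 6 arrays, whatever their group. Probe-level signal was not used here.

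The test of PI3K against KD was limma 3.58.1 under R 4.3.3, with lmFit and eBayes on group means, two-sided. P-values were adjusted by Benjamini-Hochberg over 5350 genes, at a threshold of 0.05. The number of arrays limits the precision, with 4 residual degrees of freedom and 2.97 from the prior. The test was checked on simulated data with noise drawn independently for each gene and array. That check held no array sides, so it does not cover them. No set test was run. Alternatives were no filter, a filter at 6, median-centring, quantile normalisation, trend and robust variances, a replicate block, array weights, averaged probe sets and leaving out each array. The array side as a term was added after seeing the data. Members, lists and tests were chosen with earlier results of these data known. All 9 members are named whatever their values, as are, from each list, at least the genes of smallest p each way. The genes most like PUN1, the member with the largest difference, and PIL1 are the 5 of highest r. INA1 and HOF1 fall outside this rule. Promoter motifs were not searched here. Figures come from matplotlib 3.10.9 under Python 3.11.15.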

Additional observations from a re-analysis of the deposited data

How the results depend on the processing

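No member was called in limma with no filter, the filter at 6, median-centring, quantile normalisation, trend and robust variances, the mean of probe sets, the replicate block or without any 1 array. Array weights, whose estimation stopped before convergence and gave PI3K 1 a weight of 5.02, KD 2 5.75 and KD 3 0.154, called 2808 genes in all, 6 members (PIL1, LSP1, FMP45, YNL194C, PUN1 and SEG1) and 23 of the 36 other listed genes, and turned the log2 fold changes of SUR7 to 0.14 and EIS1 to -0.0016. The array side as a covariate called 185 genes, 1 member (PUN1) and 1 other listed gene (YPK2, 1.12, limma adjusted p = 0.0412). Of all genes, between 0 and 6 were called with 1 array left out, the 0 being without KD 2, where PUN1 was at 0.95 (limma adjusted p = 0.434). The labels do not say that equal replicate numbers pair the samples. Residuals of equal numbers correlated at -0.486, 0.475 and 0.390 for numbers 1, 2 and 3. The arrays of number 2 share a side, as do those of number 3, while those of number 1 do not. These correlations therefore cannot decide whether the samples were paired. The replicate block called 40 genes, 0 members and 1 other listed gene (YPK2, limma adjusted p = 0.0318), and PUN1 had an adjusted p of 0.0581 there. The sign of EIS1 turned within side B (-0.25). Leaving out 1 array gave log2 fold changes from -0.24 to 0.0314 for SUR7 and from -0.0437 to 0.17 for EIS1, both turned without KD 3. The PI3K minus KD difference then ran from -0.18 to 0.0211 for PIL1 minus LSP1, turned without PI3K 1. It ran from -0.58 to 0.26 for FMP45 minus YNL194C, turned without PI3K 2 and without KD 3. YNL194C has no value with the filter at 6.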
